A study of Homo sapiens with 40 samples.

Results

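5 genes of the MAP kinase pathway, MAP3K8, MAP2K5, MAPK13, DUSP2 and DUSP5, were followed through 6 experiments that blocked NF-kB, added a cytokine, or lowered STAT3 or JAK activity in lymphoma cells. They are 5 of the 4604 genes with a single symbol on the arrays and are read by 15 of 15246 probes: 4 for MAP3K8, 4 for MAPK13, 3 for DUSP5, and 2 each for DUSP2 and MAP2K5. The genes were chosen with their values on these arrays known, so their own values are given as a description, and the number past the threshold stands beside the share of all genes that passed. Only MAPK13 is itself a MAP kinase. MAP3K8 and MAP2K5 are kinases of the upper tiers, and DUSP2 and DUSP5 encode phosphatases.

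The cells were OCI-Ly3 and OCI-Ly10, established cell lines from diffuse large B cell lymphoma of the ABC (activated B cell-like) subgroup. On each of 40 spotted arrays, Cy5-labelled RNA of treated cells was hybridised with Cy3-labelled control RNA of the same line. Cells carrying a doxycycline-inducible IkB super-repressor, a form of IkB that blocks NF-kB, received 20 ng/ml doxycycline for 1, 1.5, 2, 3, 4 or 6 h in OCI-Ly3 (9 arrays) or for 1.5, 3, 6 or 24 h in OCI-Ly10 (4 arrays). Their controls were labelled as the control of the same transfected line. IL-6 at 50 ng/ml was given to OCI-Ly10 for 0.5, 1, 3, 6 or 24 h (8 arrays), and IL-10 at 50 ng/ml to OCI-Ly3 for 1, 3, 6, 24, 48 or 96 h (10 arrays), with cells of the line alone as the control. A pool of STAT3 siRNAs at 4 uM was electroporated into OCI-Ly10 for 8, 24 or 48 h (5 arrays), against cells electroporated with no siRNA. JAK inhibitor I at 5 uM was given to OCI-Ly10 for 3 or 6 h (4 arrays), against cells of the line with no vehicle named. Doxycycline in cells without the super-repressor and a non-targeting siRNA were not analysed here, so effects of doxycycline or of siRNA as such cannot be told apart from those of the intended target.

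In MAP kinase pathways, a MAP3K phosphorylates a MAP2K, which phosphorylates a MAP kinase of the ERK, JNK or p38 type. DUSP phosphatases remove both phosphates from the kinase, and many DUSP genes are themselves switched on by signalling, which makes them feedback inhibitors. In B cells these pathways act downstream of the antigen receptor, CD40, Toll-like receptors and cytokine receptors. MAP3K8, also called TPL2 or COT, is held inactive in a complex with the NF-kB precursor p105, so the ERK and NF-kB pathways meet at this kinase.

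Values are log2 ratios of treated over control cells, read as base 2; the base is not stated, and all values would be 1.44 times larger if it were the natural one. They are ratios and not levels, so the identity of the cells could not be checked by marker levels, and probes of different genes cannot be ranked by abundance. A window mean is the mean of the time-point means over 2 to 6 h (OCI-Ly3) or 3 to 24 h (OCI-Ly10) for the super-repressor, 1 to 24 h for IL-6, 1 to 96 h for IL-10, 24 and 48 h for the siRNA, and 3 and 6 h for the inhibitor. It is given ± SE from a limma fit over all arrays, and a gene is called when its adjusted p lies under 0.05 over all genes tested. This fit treats arrays of the same run of identifiers as independent. A gap between ± SE ranges is a description and not a test of a difference. The labels do not say whether replicates were separate cultures, so the tests measure only the spread between these arrays. Each array gave 8862 to 14947 probe values. Replicates of a time point correlated over all probes at -0.02 to 0.68 (14 pairs), the lowest being the 2 h pair of the super-repressor in OCI-Ly3. All 14 pairs lay in different runs of array identifiers, and at shared times the replicate number and the run were the same split. Both treatment checks moved: STAT3 was at -1.46 and -2.26 at 24 h and at -1.74 and -0.89 at 48 h of its siRNA, and NFKBIA, the NF-kB target that encodes IkB alpha, went from -0.01 at 1 h to -2.07 and -2.28 at 6 h of the super-repressor in OCI-Ly3. NFKBIA probes could also detect the introduced super-repressor.

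The promoters of MAP3K8 and DUSP2 are shown because these 2 genes had their lowest window means under the NF-kB block and the JAK inhibitor. Each is 300 bases, 250 before and 50 after a RefSeq transcription start on GRCh38.p14, with matches to the motifs searched in capitals.
MAP3K8, annotated start 1, chr10:30433771-30434070, plus strand: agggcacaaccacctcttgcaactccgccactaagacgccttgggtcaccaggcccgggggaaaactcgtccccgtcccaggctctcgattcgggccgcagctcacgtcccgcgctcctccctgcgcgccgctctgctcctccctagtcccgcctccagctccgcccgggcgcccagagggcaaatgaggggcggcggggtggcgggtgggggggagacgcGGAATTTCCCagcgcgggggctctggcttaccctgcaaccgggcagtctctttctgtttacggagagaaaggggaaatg
MAP3K8, annotated start 3, chr10:30434396-30434695, plus strand: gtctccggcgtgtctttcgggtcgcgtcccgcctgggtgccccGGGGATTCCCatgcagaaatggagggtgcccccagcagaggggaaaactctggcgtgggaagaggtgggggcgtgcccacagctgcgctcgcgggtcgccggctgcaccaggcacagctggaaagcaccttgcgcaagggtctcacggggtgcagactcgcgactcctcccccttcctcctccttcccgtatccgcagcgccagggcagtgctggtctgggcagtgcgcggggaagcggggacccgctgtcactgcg
DUSP2, chr2:96145391-96145690, minus strand: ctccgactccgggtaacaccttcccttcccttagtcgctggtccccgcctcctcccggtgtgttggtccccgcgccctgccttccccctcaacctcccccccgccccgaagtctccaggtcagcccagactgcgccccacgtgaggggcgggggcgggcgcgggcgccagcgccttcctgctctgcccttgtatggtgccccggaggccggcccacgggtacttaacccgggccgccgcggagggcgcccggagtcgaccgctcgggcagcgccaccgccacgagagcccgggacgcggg
The motifs were the kB consensus, the STAT motif TTCNNNGAA, the AP-1 motif TGANTCA and the CRE motif TGACGTCA, searched on both strands. MAP3K8 had a kB match at positions -29 to -20 from start 1 and another at -207 to -198 from start 3. The window of start 2, chr10:30433934-30434233, overlaps that of start 1, holds the same match at -192 to -183, and adds an AP-1 match at -51 to -45. Of 35116 promoters of the same length, 11.3% held the kB consensus, 7.66% the STAT motif, 7.71% the AP-1 motif and 1.85% the CRE motif. The DUSP2 window, 1 window of MAPK13 (chr6:36130263-36130562) and 2 of MAP2K5 (chr15:67542453-67542752 and chr15:67548844-67549143) contained none of these letters, which says nothing about the factors. The genes lie at chr10:30434021-30461833 (MAP3K8), chr2:96143169-96145440 (DUSP2), chr6:36130513-36144521 (MAPK13), chr15:67542703-67807114 (MAP2K5) and chr10:110497907-110511533 (DUSP5) in the same build.

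**Figure D1:**
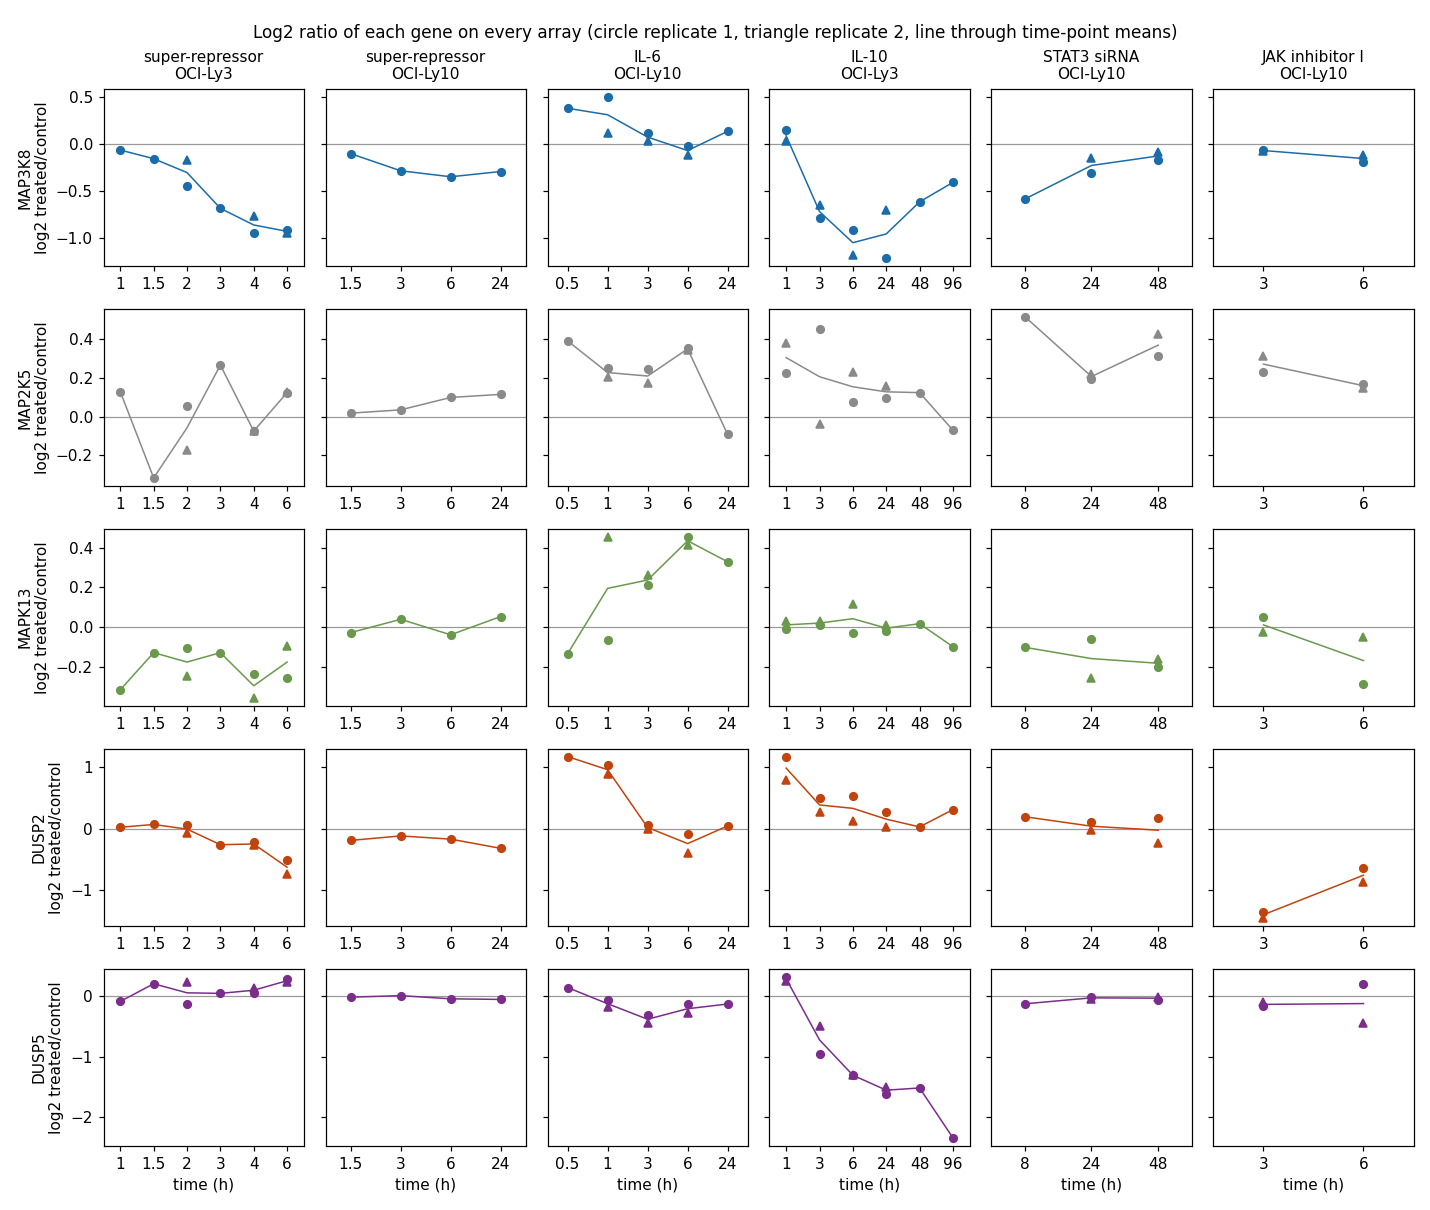
Log2 ratio of treated over control cells (y axis, one scale per row) against hours of treatment (x axis, evenly spaced steps) for the 5 genes in 6 experiments. Circles are replicate 1, triangles replicate 2, and lines join time-point means; DUSP2 starts at 1.17 (1 array, 0.5 h) with IL-6 and at 1.17 and 0.80 (1 h) with IL-10, and lies at -1.35 and -1.45 after 3 h of the JAK inhibitor, while DUSP5 runs down to -2.33 at 96 h of IL-10.

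MAP3K8, the kinase that activates MEK and through it ERK, was lower after the NF-kB block in OCI-Ly3 and after IL-10 in the same line. With the super-repressor in OCI-Ly3, MAP3K8 measured -0.06 at 1 h, -0.15 at 1.5 h, -0.44 and -0.16 at 2 h, -0.68 at 3 h, -0.95 and -0.77 at 4 h, and -0.91 and -0.95 at 6 h. All 9 arrays were below 0, and the 5 arrays from 3 h on were lower than the 4 before. The window mean fell by 0.69 ± 0.07 (7 of 7 arrays below 0), a 1.62-fold decrease, and only 7 of 4390 genes tested were lower. In bulk RNA such as this, a change in some of the cells and a smaller change in all of them cannot be told apart. The means within each run were -0.77 and -0.63 over the 3 times that both held.

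In OCI-Ly10 the super-repressor gave MAP3K8 values of -0.10, -0.28, -0.35 and -0.29, in the order 1.5, 3, 6 and 24 h. All 4 arrays were below 0, within a narrower range than in OCI-Ly3. The window mean of -0.31 ± 0.10 (3 arrays) was not called; it was with the arrays scaled to equal spread (-0.45). At the shared times of 1.5, 3 and 6 h the mean was -0.59 in OCI-Ly3 and -0.24 in OCI-Ly10, a difference of -0.35 (95% interval -0.62 to -0.07) that was not called over all genes.

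IL-10 gave MAP3K8 values in OCI-Ly3 of 0.15 and 0.03 at 1 h, -0.79 and -0.65 at 3 h, -0.92 and -1.18 at 6 h, -1.21 and -0.70 at 24 h, -0.62 at 48 h and -0.41 at 96 h. Both 1 h arrays were above 0 and the 8 later arrays below it, with the lowest values at 6 and 24 h. The window mean fell by 0.61 ± 0.06, with -0.69 and -0.63 within the runs over the 4 shared times. The 24 h replicates differed by 0.51, the widest gap of this gene, but they average unequal sets of probes. Probe 30873_1 was blank on replicate 1 and at 0.27 on replicate 2. The other probes were at -1.30, -1.28 and -1.07 on replicate 1 and at -0.93, -1.23 and -0.92 on replicate 2.

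With IL-6 in OCI-Ly10, MAP3K8 measured 0.38 at 0.5 h, 0.51 and 0.12 at 1 h, 0.12 and 0.03 at 3 h, -0.02 and -0.12 at 6 h and 0.14 at 24 h. The highest values came in the first hour, and the window mean of 0.12 ± 0.07 was not called. Under the STAT3 siRNA it was at -0.59 on the single 8 h array, -0.30 and -0.15 at 24 h and -0.17 and -0.09 at 48 h (window mean -0.18 ± 0.08, not called). Under the JAK inhibitor all 4 arrays lay between -0.19 and -0.06, as averages of unlike probes. The probe window means were -0.32, -0.04, -0.15 and 0.15. On 6 h replicate 2 the probes read -0.76, 0.135, -0.05 and 0.22. Ordered by window mean, the neighbours whose ± SE ranges did not overlap were IL-10 in OCI-Ly3 against the super-repressor in OCI-Ly10, and the JAK inhibitor against IL-6; the windows cover different times.

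The probes of MAP3K8 were not alike. Probes 17081_1, 24754_1 and 27561_1 correlated with each other over 39 or 40 arrays at r = 0.88 to 0.94, whereas probe 30873_1 correlated with them at -0.00 to 0.09 (31 or 32 arrays). With IL-10, the first 3 had window means of -0.83, -0.87 and -0.68, and the fourth 0.06. With the super-repressor in OCI-Ly10 they were at -0.42, -0.45 and -0.40, and the fourth at 0.04. In OCI-Ly3 all 4 were below 0 with the super-repressor, at -0.98, -0.82, -0.65 and -0.32. Under the siRNA the first 3 were at -0.53, -0.02 and -0.26 and the fourth at 0.19, and from probe 17081_1 alone, measured on all 40 arrays as was 27561_1, the gene was called (adjusted p = 0.0150, limma). The gene mean includes the fourth probe and is therefore nearer to 0 than the mean of the other probes in all these experiments.

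MAP2K5 encodes MEK5, the kinase that activates ERK5. Its window means were above 0 in every experiment, from 0.06 to 0.29, and no neighbours in that order were separated beyond their ± SE ranges. Under the STAT3 siRNA it measured 0.52 at 8 h, 0.19 and 0.22 at 24 h and 0.31 and 0.42 at 48 h. All 5 arrays were above 0, and the window mean rose by 0.29 ± 0.07, with 0.25 and 0.32 within the runs. The call was lost when any of the 4 window arrays was left out (window means 0.26 to 0.32) and when the run was a random block (limma, adjusted p = 0.108).

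With IL-10, MAP2K5 was at 0.23 and 0.38 at 1 h, 0.45 and -0.04 at 3 h, 0.08 and 0.23 at 6 h, 0.10 and 0.16 at 24 h, 0.12 at 48 h and -0.07 at 96 h. Probe 16802_1 was above 0 on all 10 arrays and probe 34706_1 on 7. In that order they read 0.09 and -0.17 on 3 h replicate 2 and 0.265 and -0.405 at 96 h. The gene was above 0 on 8 of 10 arrays, and the window mean of 0.14 ± 0.05 was called. It was not called without 1 h replicate 2 (0.13) or without 3 h replicate 1 (0.10), nor when the run was a block (limma, adjusted p = 0.107). With IL-6 the 7 arrays up to 6 h lay between 0.17 and 0.39 and the 24 h array at -0.09 (0.17 ± 0.05, not called). Without that 24 h array the mean was 0.26 and was called (adjusted p = 0.0164, limma), and it was called at 0.22 with the arrays scaled to equal spread. Under the JAK inhibitor the 4 arrays were at 0.23, 0.31, 0.17 and 0.15 (0.22 ± 0.07, not called). The super-repressor arrays lay between -0.32 and 0.27 (OCI-Ly3) or between 0.02 and 0.12 (OCI-Ly10), and neither window mean was called. The 2 probes correlated at r = 0.25 over 36 arrays, so the gene mean joins readings that mostly did not vary together. Probe 34706_1 was blank with IL-6 at 0.5 h, on 1 h replicate 1 and at 6 h, where probe 16802_1 alone gave the value. Probe 16802_1 was at 0.07 on 1 h replicate 2, 0.02 on 3 h replicate 1 and -0.23 at 24 h. The IL-6 window means were 0.08 for probe 16802_1 and 0.25 for probe 34706_1 (4 arrays).

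MAPK13 encodes p38 delta, one of the stress-activated kinases. It rose with IL-6 in OCI-Ly10 and fell with the super-repressor in OCI-Ly3, by small amounts. With IL-6 it measured -0.14 at 0.5 h, -0.07 and 0.46 at 1 h, 0.21 and 0.26 at 3 h, 0.45 and 0.42 at 6 h and 0.33 at 24 h. The 1 h replicates lay on opposite sides of 0, and the 5 later arrays were all above it. Probe 17084_1 alone gave the 0.5 h value and that of 1 h replicate 1, whereas all 4 probes gave 1 h replicate 2. On that probe the 1 h replicates were at -0.07 and 0.04. Its replicate 2 values were -0.01 at 3 h and -0.08 at 6 h. The window mean of the gene was 0.30 ± 0.06 (6 of 7 arrays above 0), with 0.20 and 0.38 within the runs. Its ± SE range overlapped with that of no other experiment.

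With the super-repressor in OCI-Ly3, MAPK13 was below 0 on all 9 arrays, from -0.36 at 4 h to -0.10 at 6 h. The window mean fell by 0.20 ± 0.06, with -0.20 and -0.23 within the runs. Its call was lost without 2 h replicate 2 (-0.18), 4 h replicate 2 (-0.18) or 6 h replicate 1 (-0.18), and without both 2 h arrays (-0.20), a check chosen after seeing the data. When the run was a block, neither the fall (adjusted p = 0.186, limma) nor the rise with IL-6 (adjusted p = 0.0605, limma) was called. The other experiments gave window means of -0.17 ± 0.07 with the siRNA, -0.08 ± 0.07 with the inhibitor, -0.00 ± 0.05 with IL-10 and 0.02 ± 0.09 with the super-repressor in OCI-Ly10, none called. The 10 IL-10 arrays lay between -0.10 and 0.12.

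The MAPK13 probes had the lowest correlation of any pair of probes of the 5 genes. Pairs of its 4 probes ran from r = -0.29 to 0.70 over 32 to 35 arrays. With IL-6 their window means were 0.10, 0.20, 0.37 and 0.72, and with the super-repressor in OCI-Ly3 they were -0.01, -0.16, -0.21 and -0.44. Probe 17084_1, measured on all 7 window arrays each time, gave the values nearest to 0, and the gene was not called in either experiment from that probe alone. Probe 29377_1 gave the values farthest from 0 and lacked 1 window array in each. Of the IL-6 window arrays, probe 27975_1 was measured on 5 and probe 28805_1 on 4.

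DUSP2, also called PAC-1, is a nuclear phosphatase of ERK and p38 that is induced when lymphocytes are activated. It rose early with both cytokines and fell under the JAK inhibitor. With IL-6 in OCI-Ly10 DUSP2 measured 1.17 at 0.5 h, 1.04 and 0.88 at 1 h, 0.05 and -0.01 at 3 h, -0.08 and -0.40 at 6 h and 0.04 at 24 h. The 3 arrays of the first hour lay above all 5 later arrays. The window mean over 1 to 24 h was 0.19 ± 0.07; it averages a high first hour with values near 0 and was not called, but passed with the replicate number as a block (adjusted p = 0.0206, limma), where the numbers paired the arrays. The single 0.5 h array lay outside the window.

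With IL-10 in OCI-Ly3, DUSP2 was at 1.17 and 0.80 at 1 h, 0.50 and 0.27 at 3 h, 0.54 and 0.12 at 6 h, 0.28 and 0.03 at 24 h, 0.03 at 48 h and 0.31 at 96 h. All 10 arrays were above 0, the 1 h arrays were the highest, and replicate 1 lay above replicate 2 at each of the 4 shared times. The window mean rose by 0.37 ± 0.06, with 0.62 and 0.31 within the runs. At 1 h the values were 1.04 and 0.88 with IL-6 in the other line, near the 1.17 and 0.80 of IL-10, and at 6 h the 2 IL-10 arrays were above 0 and the 2 IL-6 arrays below it. Over the shared times of 1, 3, 6 and 24 h the difference of 0.27 (95% interval 0.07 to 0.47) was not called. The IL-10 value of 6 h replicate 2 averages unlike readings, -0.075 on probe 17185_1 and 0.32 on probe 27686_1.

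Under the JAK inhibitor DUSP2 was at -1.35 and -1.45 at 3 h and at -0.65 and -0.87 at 6 h. All 4 arrays were below 0, and both 3 h arrays were lower than both 6 h arrays. The window mean fell by 1.08 ± 0.09, a 2.12-fold decrease, with -0.999 and -1.16 within the runs, and no other of 4480 genes tested was lower. The probes gave -1.16 and -1.004. The call held in each of the 13 alternatives, with means of -1.28 to -1.02. These reused arrays whose values were known when the gene was chosen, so they describe the processing and add no support.

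Under the STAT3 siRNA, DUSP2 measured 0.19 at 8 h, 0.11 and -0.03 at 24 h, and 0.18 and -0.23 at 48 h. The arrays lay on both sides of 0, and the window mean was 0.01 with a 95% interval of -0.18 to 0.20. The window of the inhibitor covers 3 and 6 h and that of the siRNA 24 and 48 h, with the single 8 h siRNA array outside. The values therefore stand side by side with no test of their difference.

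With the super-repressor in OCI-Ly3, DUSP2 measured 0.02 at 1 h, 0.07 at 1.5 h, 0.06 and -0.08 at 2 h, -0.26 at 3 h, -0.23 and -0.27 at 4 h and -0.51 and -0.74 at 6 h. The values stayed near 0 up to 2 h and were lowest at 6 h. The window mean fell by 0.29 ± 0.07 (6 of 7 arrays below 0), with -0.23 and -0.37 within the runs. This call was lost without 2 h replicate 2 (-0.27, adjusted p = 0.0501, limma) and when the run was a block (-0.28, limma adjusted p = 0.0700). In OCI-Ly10 the arrays were at -0.19, -0.12, -0.17 and -0.32 from 1.5 to 24 h, and the window mean of -0.20 ± 0.10 was not called. The 2 DUSP2 probes correlated at r = 0.96 over 39 arrays.

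DUSP5 is a nuclear phosphatase specific for ERK. It fell with IL-10 in OCI-Ly3, by a wider window mean than any other of the 5 genes in the 6 experiments. DUSP5 was at 0.31 and 0.24 at 1 h, -0.96 and -0.49 at 3 h, -1.31 and -1.30 at 6 h, -1.61 and -1.497 at 24 h, -1.52 at 48 h and -2.33 at 96 h. Both 1 h arrays were above 0 and the 8 later arrays below it, with the lowest value on the last array. The window mean fell by 1.19 ± 0.06, a 2.29-fold decrease, with -0.89 and -0.76 within the runs over the 4 shared times; only 6 of 4383 genes tested were lower. Its probes had window means of -1.16, -1.44 and -0.81, the last from 3 arrays only, and correlated at r = 0.84 to 0.92 over 17 to 40 arrays. That last probe entered only 6 h replicate 1 (-0.82), 24 h replicate 1 (-0.59) and 48 h (-1.02), each nearer to 0 than the other probes. Those other probes were at -1.46 and -1.65, -2.01 and -2.21, and -1.47 and -2.06 there. At 96 h they were at -2.04 and -2.63. The 48 and 96 h arrays lay in a run of their own.

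With IL-6 in OCI-Ly10, DUSP5 measured 0.13 at 0.5 h, -0.07 and -0.19 at 1 h, -0.32 and -0.46 at 3 h, -0.14 and -0.29 at 6 h and -0.14 at 24 h. The 7 window arrays were below 0, and the mean of -0.22 ± 0.07 was not called. The super-repressor arrays lay between -0.14 and 0.27 (OCI-Ly3) or between -0.06 and -0.00 (OCI-Ly10). The siRNA arrays lay between -0.14 and -0.01. The 6 h replicates of the JAK inhibitor, at 0.20 and -0.46, were the most discordant pair of this gene as averaged over its probes. Other than IL-10, no experiment was separated from its neighbour in the order of window means beyond the ± SE ranges.

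**Figure D2:**
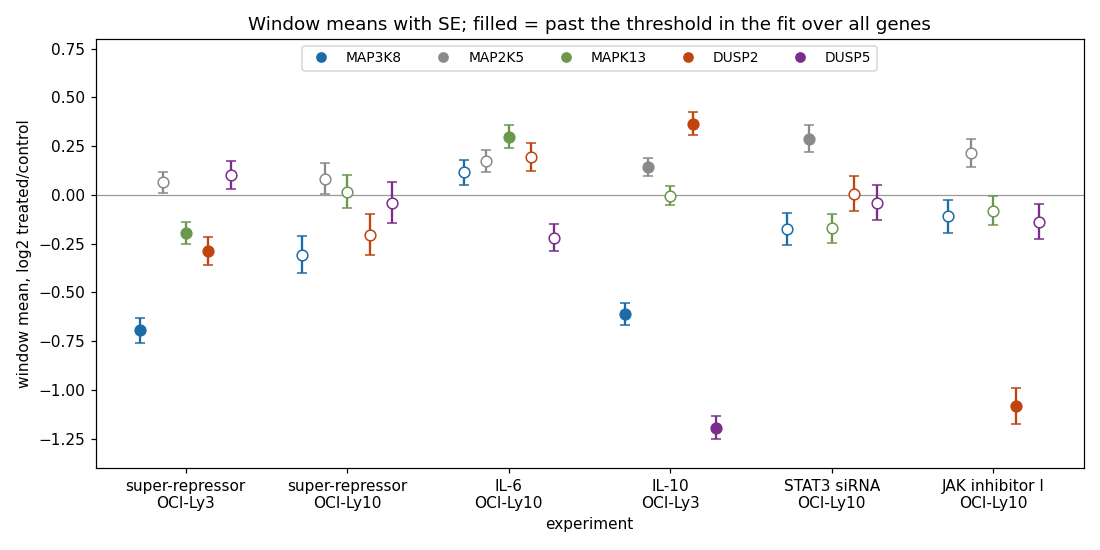
Window mean log2 ratio (y axis) ± SE of the 5 genes in the 6 experiments (x axis). Filled points passed the threshold over all genes; the lowest points are DUSP5 with IL-10 (-1.19) and DUSP2 with the JAK inhibitor (-1.08).

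Counted over the 5 genes, 3 were called with the super-repressor in OCI-Ly3, where 14% of 4390 genes passed, and 0 in OCI-Ly10, where 0.532% of 4515 passed. With IL-6 1 of the 5 was called (4.54% of 3301 genes), with IL-10 4 (35.3% of 4383), with the siRNA 1 (3.31% of 4346) and with the JAK inhibitor 1 (3.26% of 4480). The members were selected on these same contrasts, so nothing is read from the counts. MAP3K8 and DUSP2 went in the same direction under the NF-kB block in OCI-Ly3 and in opposite directions with IL-10, where MAP3K8 fell and DUSP2 rose. The phosphatases were also opposed with IL-10, at 0.37 for DUSP2 and -1.19 for DUSP5.

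The differences between experiments were fitted at shared times. Between the lines carrying the super-repressor, 0% of 4384 genes differed by limma, with 108 at an unadjusted p under 0.05, and the 5 genes were not called. IL-10 in OCI-Ly3 minus IL-6 in OCI-Ly10 was called for 8.56% of 3259 genes and for 3 of the 5. DUSP5 was lower with IL-10 by -0.61 (-0.83 against -0.22), MAP3K8 by -0.77 (-0.66 against 0.12) and MAPK13 by -0.28 (0.02 against 0.30). Cytokine and cell line cannot be told apart in this comparison. The JAK inhibitor minus IL-6, both in OCI-Ly10 at 3 and 6 h, was called for 2.07% of 3531 genes and for 2 of the 5: DUSP2 at -0.97 (-1.08 against -0.11) and MAPK13 at -0.42 (-0.08 against 0.34). Both MAPK13 differences were lost when the run was a block (limma, adjusted p = 0.188 and 0.145).

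**Figure D3:**
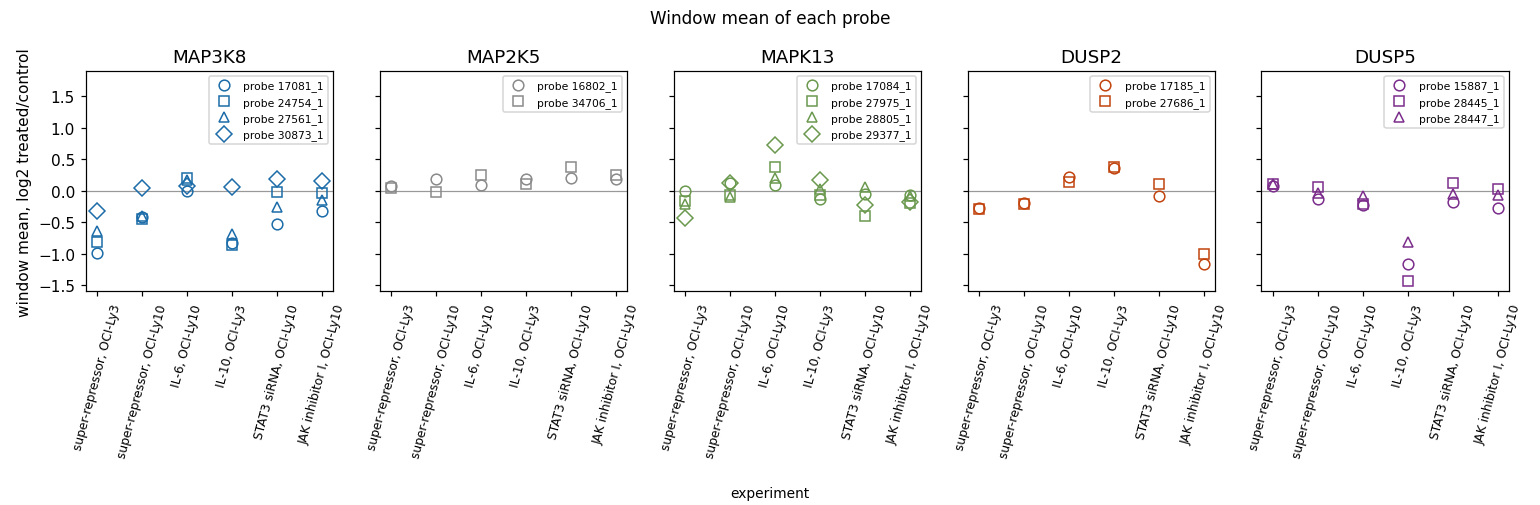
Window mean log2 ratio (y axis) of each probe in the 6 experiments (x axis), 1 panel per gene and 1 symbol per probe. The DUSP2 probes lie on top of each other in most experiments, probe 30873_1 of MAP3K8 stays at 0.06 with IL-10 while the other MAP3K8 probes lie at -0.68 or lower, and the MAPK13 probes spread from 0.10 to 0.72 with IL-6.

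Other genes of the pathway were taken from lists of kinases, phosphatases, scaffolds and ERK-responsive genes, 80 genes on the arrays besides the 5. With the super-repressor in OCI-Ly3, 78 were tested, 5 rose and 7 fell (15.4%, against 14% of all genes), with a median of -0.00 beside -0.03 for all genes. Among the MAP2K list, 3 of 5 rose, including MAP2K1 (0.21 ± 0.05), which encodes the ERK kinase MEK1, and MAP2K4 (0.21 ± 0.05), which activates JNK. PHLDA1, a gene induced by ERK signalling, rose by 0.36 ± 0.08 and MAPKAPK3, a kinase activated by p38, by 0.19 ± 0.06. Beside MAP3K8, the kinase gene MAP3K1 fell by 0.54 ± 0.13, GADD45B, a stress-response gene that binds MAP3K4, by 0.56 ± 0.14 and the cyclin gene CCND1 by 0.32 ± 0.08, each on 7 of 7 arrays. With the 5 genes included, 15 were called, 7 without 4 h replicate 2 or 6 h replicate 1, 9 without 2 h replicate 2, and 1 when the run was a random block. In OCI-Ly10, 0 of 78 were called by limma (24 of 4515 over all genes) and 4 had an unadjusted p under 0.05 (293 of 4515).

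With IL-10, 76 of these genes were tested, 12 rose and 17 fell (38.2%, against 35.3% of all genes), and the median was -0.02 for both. PHLDA1 rose by 1.03 ± 0.07, JUNB, an AP-1 subunit, by 0.94 ± 0.04, the survival gene MCL1 by 0.83 ± 0.05 and the phosphatase gene DUSP1 by 0.50 ± 0.05, each on 10 of 10 arrays. CCND1 fell by 0.52 ± 0.07, MYC by 0.44 ± 0.11, MAP3K1 by 0.41 ± 0.11 and RPS6KA3, an ERK-activated kinase, by 0.32 ± 0.06, each below 0 on all 10. Of the 9 DUSP genes tested, 2 rose (DUSP1 and DUSP2) and 2 fell, and of 14 ERK-responsive genes 6 rose and 3 fell. Some of these ERK-responsive genes, JUNB, MCL1 and MYC among them, are also known STAT3 targets, so the list does not measure ERK activity alone. Of 13 T, NK and myeloid marker genes tested with IL-10, 4 rose and 2 fell (46.2%, against 35.3% of all genes; median 0.08), and their part in the result was not tested. In the other experiments 0 of 7 to 14 such genes were called by limma. At an unadjusted p under 0.05 there were 4 of 7 with IL-6, beside 704 of 3301 over all genes. With the siRNA there was 1 of 13, beside 903 of 4346. In the rest there were 0, beside 1357 of 4390 (super-repressor in OCI-Ly3), 293 of 4515 (super-repressor in OCI-Ly10) and 726 of 4480 (inhibitor).

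With IL-6, 64 were tested, 4 rose and 0 fell (6.25%, against 4.54%; median 0.01 beside -0.01). MAP3K3, a kinase upstream of MEK5, rose by 0.38 ± 0.09 (6 of 6 arrays) and JUNB by 0.36 ± 0.05 (7 of 7). With the 5 genes included, 5 were called, 11 with the replicate block, 3 without 1 h replicate 1 and 1 with the run as a block. Under the siRNA, 77 were tested, 1 rose and 2 fell (3.9%, against 3.31%; median -0.03 beside -0.01). EGR1, an immediate-early gene, rose by 0.40 ± 0.09, while IER2, also an immediate-early gene, fell by 0.62 ± 0.14 (3 arrays) and RASGRP1, a RAS activator, by 0.37 ± 0.08. With the 5 genes included, 4 were called, and 0 to 2 when any of the 4 window arrays was left out.

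Under the JAK inhibitor, 79 were tested, 1 rose and 3 fell (5.06%, against 3.26%; median -0.01 beside 0.00). MYC fell by 0.70 ± 0.16, PHLDA1 by 0.66 ± 0.10 and MCL1 by 0.28 ± 0.07, while GADD45A, a DNA damage-response gene, rose by 0.42 ± 0.08, each with 1 sign on 4 of 4 arrays. Of these 3 genes that fell, PHLDA1 and MCL1 rose with IL-10 in the other line and MYC fell there. With the 5 genes included, 5 were called, 2 without 3 h replicate 1, 3 h replicate 2 or 6 h replicate 2.

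**Figure D4:**
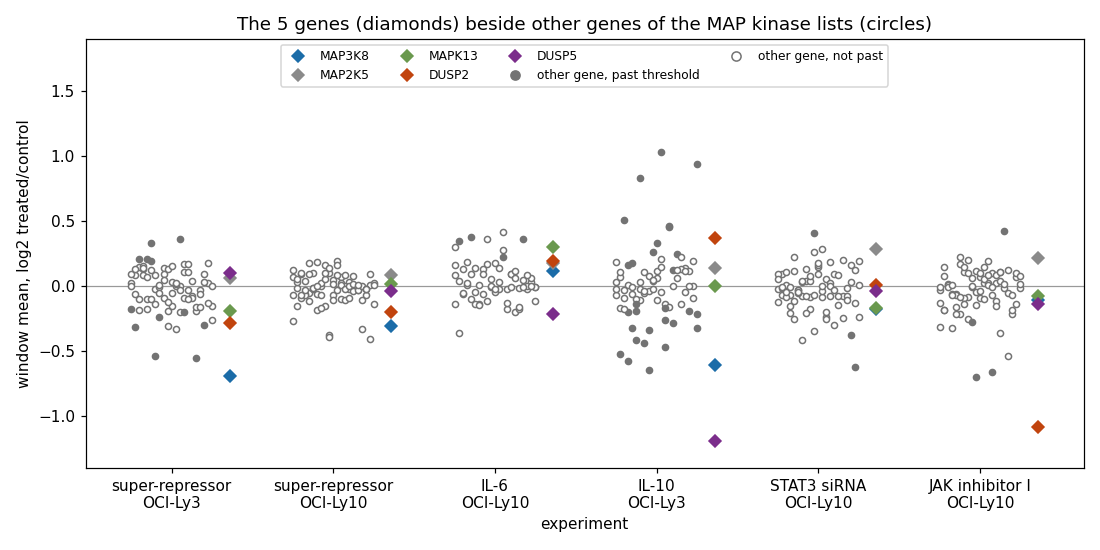
Window mean log2 ratio (y axis) of the 5 genes (diamonds) and of the other genes of the MAP kinase lists (circles, filled when past the threshold) in the 6 experiments (x axis). DUSP2 with the JAK inhibitor (-1.08), MAP3K8 with the super-repressor in OCI-Ly3 (-0.69) and DUSP5 with IL-10 (-1.19) lie below every other listed gene in those experiments.

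The genes whose values ran most like each of the 5 across arrays were found among 4410 genes measured on at least 30 arrays; the arrays share experiments and times, and r is given as a description. For DUSP2 they were JUNB (r = 0.77), PIM3 (0.75) and BCL3 (0.71), each over 40 arrays. DUSP5 ran most like NIBAN3, CD24 and PTGS1 (0.88, 0.88 and 0.87, 40 arrays). MAP3K8 ran most like RHOF (0.76, 39 arrays), NFIC (0.68, 40) and PPARD (0.68, 37). For MAPK13 they were CD6 (0.83), SEM1 (0.79) and ZCCHC8 (0.79) over 35 to 37 arrays, and for MAP2K5 PDE4DIP (0.72), NRP2 (0.64) and MDM4 (0.64) over 35 to 38. Among the 5 genes themselves the highest r was 0.43, between DUSP5 and MAP3K8, and the lowest -0.19, between DUSP5 and MAPK13.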

How the data were processed

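Per the labels, total RNA was extracted with Trizol, copied from an oligo-dT primer and coupled to Cy5 (treated) or Cy3 (control). The authors deposited 1 log ratio per probe and array, read here as log2 of Cy5 over Cy3; what the log base, background correction, spot filter and normalization were is not given in the sources used here. No array had its dyes swapped, and dye bias of single genes therefore remains. Array medians as deposited lay between -0.03 and 0.01, and 12.6% of the values were blank. Channel intensities were not used here, so the number of arrays limits the precision.

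Each array was median-centred. Probes with 1 symbol in the platform annotation (10169 of 15246; 5073 had none and 4 several) were averaged into 4604 genes. A limma model (version 3.58.1, R 4.3.3) of all 40 arrays had 1 coefficient for each time point of each experiment, and window means and differences were tested with lmFit and eBayes and Benjamini-Hochberg adjustment at 0.05. A gene was tested with a value on at least 75% of a window's arrays and at every time point. Where a time point had a single array, the spread comes from the others. The fit was tested on simulated data with independent noise and no correlation within a run. That check therefore does not cover arrays that share a run. Promoters came from RefSeq (GRCh38.p14), with 4 of the 5 genes matched.

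The members, gene lists and tests were chosen with earlier results of these data known. Genes named beside the 5 were STAT3 and NFKBIA, up to 4 called genes at each end of an experiment's listed genes with 1 sign on all its arrays, and the 3 nearest in pattern to each member. Runs are identifiers in the titles, a gap above 50 starting a new one (12 runs). Deviations of same-numbered replicates correlated across time points, IL-10 at 0.39 to 0.59 and IL-6 at 0.18 to 0.23, which were taken as paired, and the super-repressor in OCI-Ly3 at -0.37 to 0.34, which was not; the siRNA (0.25) and inhibitor (0.22) had 2 pairs each. Alternatives were the deposited centring, equal spread, other probe summaries, coverage minimums, each experiment alone, run and replicate blocks, and each array left out.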

Additional observations from a re-analysis of the deposited data

Results flagged for a closer look

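Several of the 5 genes had all replicates on one side of 0 at one time and on the other side at another; these differences between times were not tested. DUSP5 with IL-10 in OCI-Ly3 was lower at 3 h than at 1 h by -1.003, at 6 h by -1.58 and at 24 h by -1.83. MAP3K8 in the same experiment was lower than at 1 h by -0.81 at 3 h, -1.14 at 6 h and -1.05 at 24 h. With IL-6 in OCI-Ly10, DUSP2 at 6 h lay -1.20 from its 1 h mean, and MAP3K8 at 6 h lay -0.38 from its 1 h mean and -0.14 from its 3 h mean. MAP2K5 with the super-repressor in OCI-Ly3 was higher at 6 h than at 4 h by 0.20. DUSP5 at the shared times of the super-repressor was above 0 on all 4 OCI-Ly3 arrays and below 0 on all 3 OCI-Ly10 arrays. The difference of 0.18 was tested over all genes and not called. The OCI-Ly10 values were only -0.03, -0.00 and -0.05, with a pooled replicate SD of 0.18 for this gene. Probe 28445_1 was above 0 on those 3 arrays, at 0.03, 0.04 and 0.11.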

How the results depend on the processing

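No call changed direction. MAP3K8 with the super-repressor in OCI-Ly3 and with IL-10, DUSP2 and DUSP5 with IL-10 and DUSP2 with the JAK inhibitor were called under every alternative run. These genes were chosen with their values on the same arrays known, so this describes the processing only. Results that crossed the threshold follow, and the cause was not tested. Counts are of all listed pathway genes, the 5 included. No share of all genes stands beside the counts of single alternatives, here or above. Nothing about the pathway is therefore read from these counts. When the run was a random block (correlation within a run 0.27), they went from 15 to 1 for the super-repressor in OCI-Ly3, from 5 to 1 for IL-6 and from 4 to 0 for the siRNA; calls were lost for DUSP2 (-0.28) and MAPK13 (-0.19) with the super-repressor in OCI-Ly3, MAPK13 with IL-6 (0.31), and MAP2K5 with IL-10 (0.14) and the siRNA (0.29). Genes that differed between experiments went from 279 to 84 (IL-10 minus IL-6; MAPK13 -0.29, lost) and from 73 to 43 (inhibitor minus IL-6; MAPK13 -0.42, lost).

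Each experiment fitted alone gave 8 called genes for the super-repressor in OCI-Ly3, 1 for IL-6, 0 for the siRNA and 1 for the inhibitor, and lost MAPK13 (-0.20 with the super-repressor, 0.30 with IL-6) and MAP2K5 (0.14 with IL-10, 0.29 with the siRNA). It could not be run for OCI-Ly10 with the super-repressor, with 1 array per time point. Arrays scaled to equal spread gave 5 in place of 0 there, 14 for IL-6 and 8 for the inhibitor, 2 in place of 0 differing between lines and 176 in place of 73 between inhibitor and IL-6, and lost MAPK13 with the super-repressor (-0.17). The same scaling called MAP3K8 with the super-repressor in OCI-Ly10 (-0.45), DUSP2 (0.23), DUSP5 (-0.26) and MAP2K5 (0.22) with IL-6 and MAP2K5 with the inhibitor (0.25). The best-covered probe gave 2 for IL-6 and lost MAPK13 (0.10 with IL-6, -0.011 with the super-repressor) and MAP2K5 with the siRNA (0.20), while it called MAP3K8 with the siRNA (-0.53). Values required on all arrays gave 3 for IL-6. Without both 2 h arrays, chosen after seeing the data, MAPK13 with the super-repressor was at -0.20 and not called.

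With the replicate block, counts were 11 for IL-6, where the numbers paired the arrays, and 8 for the inhibitor; among the 5 genes it changed only the call of DUSP2 with IL-6. With 1 array left out, counts ranged from 7 to 19 for the super-repressor in OCI-Ly3 (7 without 4 h replicate 2 or 6 h replicate 1, 9 without 2 h replicate 2), 3 to 5 for IL-6, 0 to 2 for the siRNA and 2 to 6 for the inhibitor. Means ranged from -0.32 to -0.26 for DUSP2 and from -0.22 to -0.18 for MAPK13 with the super-repressor in OCI-Ly3, from 0.10 to 0.18 for MAP2K5 with IL-10 and from 0.26 to 0.32 with the siRNA. MAP2K5 with IL-6 ranged from 0.16 to 0.26 and among these was called only without the 24 h array (0.26). The natural base would multiply all values by 1.44 and was not run as a fit.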
